A study of Rattus norvegicus with 23 samples.

Results

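Ampd3 and 9 other genes of purine nucleotide breakdown and salvage were followed in the 23 labelled rat samples. The 10 genes were found by their symbols among the 30452 genes of the count table, and all 10 were among the 14777 genes that passed the filter on low counts. They are the AMP deaminases Ampd1, Ampd2 and Ampd3, the 5'-nucleotidase Nt5e, adenosine deaminase (Ada), adenosine kinase (Adk), purine nucleoside phosphorylase (Pnp), guanine deaminase (Gda), xanthine dehydrogenase (Xdh) and the salvage enzyme Hprt1. Ampd3 had been picked because its level was far higher at pH 6.0 than at pH 7.4 in NRK-49F cells, so its values in NRK-49F samples and its differences between the lines are given as a description without a test. Ampd3 was thus chosen by its measured counts in NRK-49F cells, and the other 9 for their place in the pathway.

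The samples were 2 rat kidney cell lines, NRK-52E (labelled NRKE, epithelial) and NRK-49F (labelled NRKF, fibroblasts). Both lines were kept for 24 h in medium without FCS and then for 48 h at pH 7.4 or at pH 6.0, the latter set with HCl, to ask how non-respiratory acidosis alters gene expression. The labels also give 10% serum and 1.5 g/L NaHCO3 for all samples, and the paper names 10% FCS for the medium of growth before the experiments. There were 6 samples of NRK-52E cells at each pH, 6 of NRK-49F cells at pH 7.4 and 5 at pH 6.0. Each cell type was thus represented by 1 line, and nothing in the labels says whether replicates were separate cultures, so the p-values measure the spread between these samples only. The labels further divide each line into 2 sample groups, 1 and 3 in NRK-52E and 4 and 6 in NRK-49F, whose meaning they do not give. As no sample group held both lines, a difference between the lines and a difference between sample groups cannot be told apart.

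Total counts ranged from 16412564 to 34250535 per sample, and 3 counts, taken as the smallest level the depth can show, corresponded to between 0.0839 and 0.203 FPM (counts per 1000000 counts of the TMM-scaled library). The line labels were borne out in part. Pdgfra averaged 306 FPM in NRK-49F and 1.83 FPM in NRK-52E cells at pH 7.4, but of 8 measured epithelial markers Esrp1 was at 0 in both lines, Epcam averaged 0.00759 FPM or less in every condition, Cdh1 averaged 0.160 FPM in NRK-52E at pH 7.4, near the mean level of 3 counts there (0.138 FPM), and less in the other conditions, Krt8 was higher in NRK-49F (839 FPM) than in NRK-52E (499 FPM), and Tjp3 was higher in NRK-52E (15.04 against 1.76 FPM). The fibroblast gene Col3a1 was higher in NRK-52E (6149 FPM) than in NRK-49F (1212 FPM). Marker levels also differed between the pH values. The 8 epithelial markers summed to 462 to 665 FPM at pH 7.4 and 216 to 275 FPM at pH 6.0 in NRK-52E and to 669 to 1209 and 439 to 697 FPM in NRK-49F, mostly from Krt8. The 10 fibroblast markers summed to 4981 to 8160 and 1842 to 3120 FPM in NRK-52E, mostly from Col3a1, and to 10770 to 13760 and 7415 to 9951 FPM in NRK-49F. The 8 leukocyte markers, of which Ptprc was at 0 in 3 of the 4 conditions and had at most 0.1998 FPM in the fourth, summed to 85.95 to 109.7 and 65.95 to 177 FPM in NRK-52E, and to 123 to 139 and 295 to 343 FPM in NRK-49F, where the gap lay in Cd68 (means of 29.9 and 229.5 FPM). The 6 endothelial markers, with Kdr and Emcn at 0 in every sample, summed to 10.3 to 21.5 and 3.11 to 5.13 FPM in NRK-52E, where the gap lay in Tek (14.3 and 1.76 FPM), and to 3.76 to 5.34 and 5.70 to 8.84 FPM in NRK-49F. Of these lists, 2, 7, 5 and 1 genes were above the level of 3 counts in all NRK-52E samples at pH 7.4 and 2, 4, 4 and 3 at pH 6.0, and 2, 9, 3 and 1 in NRK-49F at pH 7.4 and 2, 9, 3 and 2 at pH 6.0. The part of these shifts in the results on the purine genes was not tested. In bulk RNA, fewer cells of a type and less RNA per cell cannot be told apart.

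AMP deaminases convert AMP into IMP and release ammonia, and 5'-nucleotidases convert AMP into adenosine, outside the cell in the case of Nt5e. Adenosine is either turned into inosine by adenosine deaminase or returned to AMP by adenosine kinase. Purine nucleoside phosphorylase splits inosine and guanosine into the bases hypoxanthine and guanine, guanine deaminase makes xanthine from guanine, and xanthine dehydrogenase oxidises hypoxanthine and xanthine to urate. Hprt1 takes hypoxanthine and guanine back into nucleotides. Ampd1 is known as the isoform of skeletal muscle, Ampd2 of liver and many other tissues, and Ampd3 of erythrocytes.

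Promoter sequences of RefSeq (assembly GRCr8), from 250 bases before to 50 bases after the start of a gene, were found for 9 of the 10 genes and not for Ampd3. The 3 windows below are shown because, at pH 6.0 in NRK-52E cells, Ampd1 and Hprt1 were the genes that rose and Pnp the gene whose fall differed between sample groups. They are printed 5' to 3' on the strand of the gene, and capitals mark matches to the motifs searched on both strands.
Ampd1, chr2:193287082-193287381, plus strand: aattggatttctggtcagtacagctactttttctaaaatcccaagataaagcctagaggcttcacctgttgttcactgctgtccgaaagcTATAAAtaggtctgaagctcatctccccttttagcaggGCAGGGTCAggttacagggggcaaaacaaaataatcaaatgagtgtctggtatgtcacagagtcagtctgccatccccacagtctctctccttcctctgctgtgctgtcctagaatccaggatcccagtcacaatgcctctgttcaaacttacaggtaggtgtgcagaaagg
Hprt1, chrX:137655494-137655793, plus strand: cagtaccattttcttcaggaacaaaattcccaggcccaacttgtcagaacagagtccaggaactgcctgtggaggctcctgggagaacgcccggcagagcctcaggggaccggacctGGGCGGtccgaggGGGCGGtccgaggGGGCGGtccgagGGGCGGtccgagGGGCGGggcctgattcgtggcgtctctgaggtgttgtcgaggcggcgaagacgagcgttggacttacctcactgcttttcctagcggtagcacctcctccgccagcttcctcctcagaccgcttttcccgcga
Pnp, chr15:26643897-26644196, plus strand: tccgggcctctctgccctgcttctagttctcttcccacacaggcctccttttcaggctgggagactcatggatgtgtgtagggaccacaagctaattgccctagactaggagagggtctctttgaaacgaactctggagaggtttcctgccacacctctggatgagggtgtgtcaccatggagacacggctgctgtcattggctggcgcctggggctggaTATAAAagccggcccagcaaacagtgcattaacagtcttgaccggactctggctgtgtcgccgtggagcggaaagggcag

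The motifs were a cAMP response element (TGACGTCA), an AP-1 site (TGANTCA), a CHOP-ATF4 element (TGATGNAAN), an antioxidant element (TGACNNNGC, which shares its first letters with the cAMP response element), an E-box (CACGTG), a GC box (GGGCGG) and a TATA box (TATAAA). The Ampd1 window held a TATA box that began 160 bases before the start and an antioxidant element that began 122 bases before it. The Pnp window held a TATA box 30 bases before the start and no GC box. By contrast, the Hprt1 window held 5 GC boxes, from 133 to 83 bases before the start, and no TATA box. Of all 33465 windows of this length, 14.2% held the TATA box letters, 33.1% the GC box and 12.1% the antioxidant element. None of the 9 windows held the cAMP response element (1.83% of all windows), the AP-1 site (7.33%), the CHOP-ATF4 element (3.97%) or the E-box (6.42%). Such a match describes the letters of the window and does not show a bound site.

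Among the AMP deaminases, Ampd1 was higher at pH 6.0 than at pH 7.4 in NRK-52E and Ampd3 in NRK-49F cells, while Ampd2 passed the test in neither line. Ampd3 (chromosome 1) was measured in NRK-49F cells at pH 7.4 at 1.12, 1.29, 1.33, 1.49, 1.53 and 3.69 FPM. In the same line at pH 6.0 it was measured at 30.5, 38.5, 43.4, 47.8 and 63.5 FPM. The lowest acid sample was thus above the highest control sample, and the ratio of the means was 25.7. The sample at 3.69 FPM (A040, sample group 4) stood apart from the other control samples, and without it the fitted log2 difference was 5.05 in place of 4.68. Raw counts of Ampd3 in this line were 22 to 83 at pH 7.4 and 782 to 1042 at pH 6.0.

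In NRK-52E cells Ampd3 was measured at 8.09 to 13.01 FPM at pH 7.4, with a median of 11.9 FPM. At pH 6.0 the samples split by sample group. Those of sample group 1 had 9.45, 9.51 and 10.5 FPM and exceeded only 1 control sample, A035 of sample group 3 (8.09 FPM), and those of sample group 3 had 2.93, 3.35 and 4.25 FPM and lay below all control samples. The acid response differed by -1.30 on the log2 scale between sample groups 3 and 1 (SE 0.37, adjusted p = 0.0291, edgeR quasi-likelihood test), a comparison in which 10.6% of all genes passed (3.78% higher and 6.87% lower in sample group 3). These tests come from the model of all 4 conditions, in which the NRK-49F samples enter the estimate of the spread. With NRK-52E fitted alone the difference between the sample groups was -1.29 (adjusted p = 0.00352). The call was kept in 23 of 32 alternative analyses, with an adjusted p of up to 0.0862. Over both sample groups the log2 fold change was -0.77 (SE 0.29, adjusted p = 0.0253), and the call was lost with NRK-52E fitted alone (-0.69, adjusted p = 0.0525). It was -0.23 in sample group 1 alone (adjusted p = 0.126) and -1.53 in sample group 3 alone (adjusted p = 0.000242), and without A036, A037 or A038, the 3 acid samples of sample group 3, the adjusted p over both groups was 0.0642, 0.0612 or 0.0644. Ordered by their means, the 4 conditions ran from 1.74 ± 0.967 FPM in NRK-49F at pH 7.4 (SD, n = 6) over 6.67 ± 3.50 FPM in NRK-52E at pH 6.0 (n = 6) and 11.4 ± 1.70 FPM in NRK-52E at pH 7.4 (n = 6) to 44.8 ± 12.3 FPM in NRK-49F at pH 6.0 (n = 5). The first pair overlapped only through A040, the second only through A035, and the last condition lay above all others.

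Ampd1 (chromosome 2) was low in NRK-52E cells at pH 7.4, at 0.699 to 1.09 FPM or 13 to 25 counts. At pH 6.0 the samples had 5.13, 8.69, 8.92, 10.1, 10.5 and 10.5 FPM, 104 to 361 counts, and all exceeded the control samples, as in 15.4% of all genes. The log2 fold change was 3.38 (SE 0.40, adjusted p = 1.01e-07), with 3.53 in sample group 1 and 3.41 in sample group 3. In NRK-49F cells Ampd1 stayed near the limit of the depth, at 0 to 0.720 FPM at pH 7.4 and 0.185 to 0.667 FPM at pH 6.0, and the difference did not pass (0.71, SE 0.59, adjusted p = 0.410). The response of NRK-49F minus that of NRK-52E was -2.68. It is given as a description, since Ampd1 passed the filter on low counts only through NRK-52E. This difference rested on A051, the NRK-49F control sample with 19 counts. Without A051 it was -1.67, and the change in NRK-49F cells was then 1.71.

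Ampd2 (chromosome 2) was measured at 65.4 ± 6.08 and 58.1 ± 10.6 FPM at pH 7.4 and 6.0 in NRK-52E (SD, n = 6 each) and at 49.4 ± 2.61 (n = 6) and 49.9 ± 5.21 FPM (n = 5) in NRK-49F. The ranges of the 2 pH values overlapped in both lines. The log2 fold changes were -0.17 (SE 0.10, adjusted p = 0.142) and 0.01 (SE 0.10, adjusted p = 0.947). Within NRK-52E the acid samples of sample group 3 (46.0 to 53.5 FPM) were again lower than those of sample group 1 (61.9 to 70.7 FPM), and sample group 3 alone gave -0.30 (adjusted p = 0.0464), but the difference between the sample groups did not pass (-0.39, SE 0.15, adjusted p = 0.111).

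**Figure D1:**
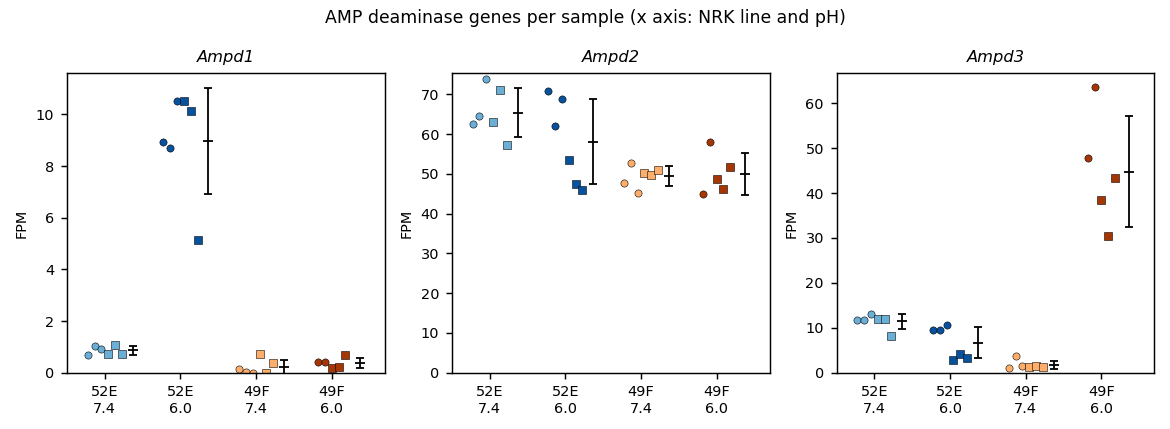
Levels of the AMP deaminase genes (y axis, FPM, linear, from 0) in each sample by cell line and pH (x axis). Points are samples, circles for sample groups 1 and 4 and squares for 3 and 6, and the bars beside them are mean and SD; Ampd1 lay at 5.13 to 10.5 FPM only in NRK-52E at pH 6.0, Ampd3 at 30.5 to 63.5 FPM only in NRK-49F at pH 6.0, and in NRK-52E at pH 6.0 Ampd3 separated by sample group.

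At pH 6.0, 7 of 8 genes passed the test in NRK-52E cells, against 61.2% of all tested genes. Ampd3 and Gda are not among the 8, since Gda passed the filter on low counts only through NRK-49F and is described below by its counts. Ada is among them, although within this line it passed the filter through the control samples only. With at least 10 counts required in every sample, which left out Ada and Ampd1, 5 of 6 genes passed. Of the 7, Ampd1 and Hprt1 were higher (24.7% of all genes passed in this direction), and Ada, Adk, Nt5e, Pnp and Xdh were lower (36.6%). Over the genes that passed the filter within NRK-52E itself the shares were 26.2% and 36.4%. The median log2 fold change of the 8 genes was -1.03, against -0.09 over those genes. When the line was filtered and scaled alone, the median over all genes was -0.0023, and the direction of the 7 calls was kept under every scaling tried. In NRK-49F cells 0 of the 9 genes passed, against 28.9% of all genes (14.5% higher and 14.4% lower), and Ampd1 passed the filter only through NRK-52E. The median of the 8 others was -0.06. At an unadjusted p under 0.05 the edgeR quasi-likelihood test gave 2 (Xdh and Pnp), and the likelihood ratio test and DESeq2 gave 0 after adjustment. The response itself was also compared between the lines, a comparison in which 41.4% of all genes differed. Adk, Nt5e, Pnp and Xdh had the higher log2 fold change in NRK-49F (24.7% of all genes) and Hprt1 the lower (16.8%). Ampd2 did not differ. Ampd1 and Gda are left out, because each passed the filter on low counts only through the line in which it was high. Ada is left out too, because its acid NRK-52E samples held only 5 to 12 counts each. Between sample groups 4 and 6 of NRK-49F, 0 of the 9 responses differed, against 0% of all genes, by the quasi-likelihood test, with 0 of the 9 and 596 of all genes at an unadjusted p under 0.05 and 7 and 10 genes by the likelihood ratio test and DESeq2.

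The RNA levels of Nt5e, Ada and Adk, whose enzymes make or use adenosine, were lower at pH 6.0 in NRK-52E cells. Nt5e (chromosome 8), which makes extracellular adenosine, was measured there at 1.96 to 3.81 FPM at pH 7.4 and 1.10 to 1.40 FPM at pH 6.0, without overlap (23.2% of all genes had all acid samples lower). Its log2 fold change was -1.14 (SE 0.22, adjusted p = 0.000110). In NRK-49F cells the ranges overlapped, from 2.16 to 5.00 FPM and from 1.89 to 4.00 FPM, and the change was -0.34 (SE 0.22, adjusted p = 0.266). The responses differed by 0.79 (SE 0.31, adjusted p = 0.0451), but this was called in only 13 of 32 alternatives, with an adjusted p of up to 0.110 when A056 was left out.

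Ada (chromosome 3), which deaminates adenosine, was measured in NRK-52E cells at 1.77 to 3.45 FPM at pH 7.4, and the acid samples at 0.146 to 0.592 FPM held 5 to 12 counts each. All acid samples were below all control samples, as in 23.2% of all genes, and the log2 fold change was -2.73 (SE 0.27). Within this line Ada passed the filter through the control samples only, so the fall is given as a description without a test. NRK-49F cells had 22.9 to 36.7 FPM at pH 7.4 and 20.6, 24.3, 27.3, 28.5 and 38.02 FPM at pH 6.0, with overlapping ranges and a change of -0.04 (SE 0.18, adjusted p = 0.900). The difference between the responses was 2.68 (SE 0.33). It is also a description, since the acid NRK-52E samples held few counts. Adk (chromosome 15), which recycles adenosine to AMP, was at 64.7 to 80.8 FPM at pH 7.4 and 34.99 to 42.2 FPM at pH 6.0 in NRK-52E (log2 fold change -0.92, SE 0.081, adjusted p = 9.76e-10). In NRK-49F it was at 103 to 137 FPM and 97.4 to 120 FPM (-0.07, SE 0.083, adjusted p = 0.579), and the responses differed by 0.85 (SE 0.12, adjusted p = 2.93e-06). For both genes the fall thus concerned NRK-52E, the line with the lower level at pH 7.4.

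Pnp (chromosome 15), which splits inosine and guanosine, was measured in NRK-52E cells at 245 to 305 FPM at pH 7.4. The acid samples of sample group 1 had 95.9, 106 and 116 FPM, and those of sample group 3 had 49.04, 49.9 and 63.7 FPM. All 6 were below the control samples (23.2% of all genes), and the 2 sample groups did not overlap. The log2 fold change was -1.74 (SE 0.17, adjusted p = 4.44e-09), with -1.26 in sample group 1 and -2.22 in sample group 3. This difference of -0.95 between the sample groups passed (SE 0.18, adjusted p = 0.00191), and Pnp was the only one of the 9 to do so (10.6% of all genes), while DESeq2 also called Xdh (-0.33, adjusted p = 0.0392). NRK-49F cells had 296 to 391 FPM at pH 7.4 and 223, 231, 246, 264 and 281 FPM at pH 6.0. Here too no sample overlapped (10.2% of all genes had all acid samples lower), yet the change of -0.40 did not pass in the fit of both lines (SE 0.17, adjusted p = 0.0836). It passed with NRK-49F fitted alone (adjusted p = 0.00282) and with sample group as a block (adjusted p = 0.0306). The responses of the lines differed by 1.34 (SE 0.24, adjusted p = 7.74e-05).

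Xdh (chromosome 6), the last step to urate, had responses of opposite sign in the 2 lines, of which that in NRK-52E passed the test. In NRK-52E cells it was at 504 to 581 FPM at pH 7.4, and at pH 6.0 at 277 to 289 FPM in sample group 1 and 215 to 221 FPM in sample group 3. The log2 fold change was -1.14 (SE 0.084, adjusted p = 5.64e-11). In NRK-49F cells it was at 158 to 194 FPM at pH 7.4 and at 202, 202, 207, 229 and 229 FPM at pH 6.0, without overlap (10.4% of all genes had all acid samples higher). The log2 difference of 0.22 did not pass in the fit of both lines (SE 0.087, adjusted p = 0.0576), and passed with NRK-49F alone (adjusted p = 0.0395) and with sample group as a block (adjusted p = 0.0188). The responses differed by 1.36 (SE 0.12, adjusted p = 7.03e-09).

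Hprt1 (X chromosome), which salvages hypoxanthine and guanine and is often used as a reference gene, was measured in NRK-52E cells at 86.0 to 137 FPM at pH 7.4 and 185 to 295 FPM at pH 6.0. No sample overlapped (15.4% of all genes had all acid samples higher), and the log2 fold change was 1.14 (SE 0.13, adjusted p = 1.14e-07). At both pH values sample group 3 was higher than sample group 1, with 114 to 137 against 86.0 to 90.9 FPM at pH 7.4 and 255 to 295 against 185 to 234 FPM at pH 6.0, and the response of the sample groups differed by -0.10 (SE 0.20, adjusted p = 0.824). NRK-49F cells had 51.02 to 71.9 FPM at pH 7.4 and 52.8 to 80.2 FPM at pH 6.0, with overlap (0.10, SE 0.14, adjusted p = 0.646). The responses differed by -1.04 (SE 0.19, adjusted p = 0.000146).

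Gda (chromosome 1), which deaminates guanine, was measured in NRK-49F cells at 63.6 to 126 FPM at pH 7.4 and at 22.98, 48.6, 68.2, 76.5 and 81.5 FPM at pH 6.0, with overlap, and the change of -0.64 did not pass (SE 0.32, adjusted p = 0.139). In NRK-52E cells the 6 acid samples had 0 counts each, and the control samples had 26, 3, 2, 4, 0 and 0 counts. The control mean of 0.191 FPM was close to the mean level of 3 counts in the acid samples, 0.147 FPM, and without A021, the sample with 26 counts, it was 0.0838 FPM. Gda did not pass the filter within NRK-52E, so no test of it is given there. A021 was also the NRK-52E control sample with the highest level of the fibroblast genes Pdgfra (4.73 FPM, against 0.679 to 2.21 FPM in the other 5), Vcam1 (4.00 against 0.273 to 1.32 FPM), Col1a2 (52.9 against 0.415 to 15.4 FPM) and Lum (2.35 against 0 to 0.699 FPM). These levels were 1.54%, 1.47%, 1.18% and 2.37% of the NRK-49F means at pH 7.4, and that of Gda in A021 was 0.783%. Of the 10 fibroblast markers, only these were examined in this way. Over all 10 fibroblast markers, however, A034 and not A021 had the highest sum of the NRK-52E control samples (8160 FPM). Thy1 and Dcn were at 0 in every NRK-52E control sample. The part of the marker levels in the result was not tested.

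**Figure D2:**
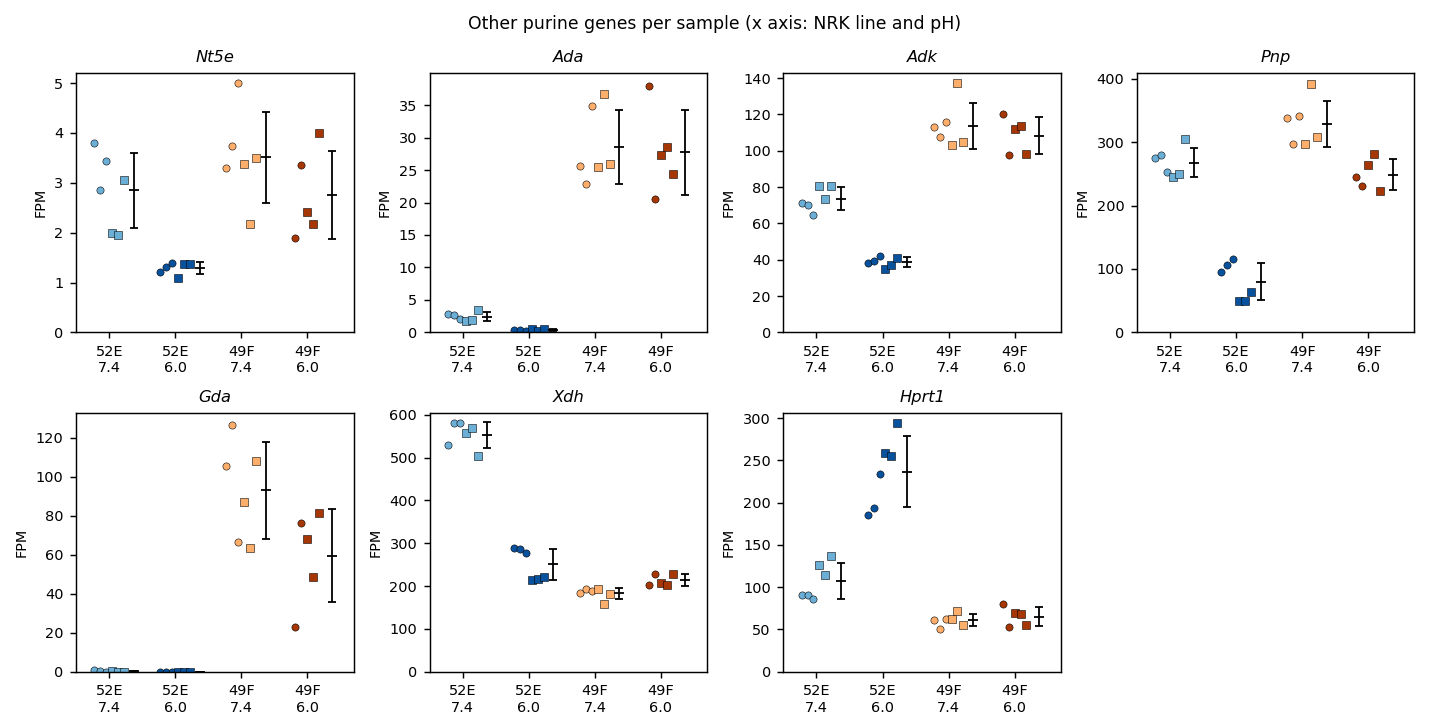
Levels of the other purine genes (y axis, FPM, linear, from 0) in each sample by cell line and pH (x axis), drawn as points with circles for sample groups 1 and 4, squares for 3 and 6, and mean and SD beside them. In NRK-52E the acid samples of Pnp (49.04 to 116 FPM), Xdh (215 to 289 FPM), Ada and Adk lay below, and those of Hprt1 (185 to 295 FPM) above, all control samples, and Gda lay at 22.98 to 126 FPM in NRK-49F and at most at 0.728 FPM in NRK-52E.

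**Figure D3:**
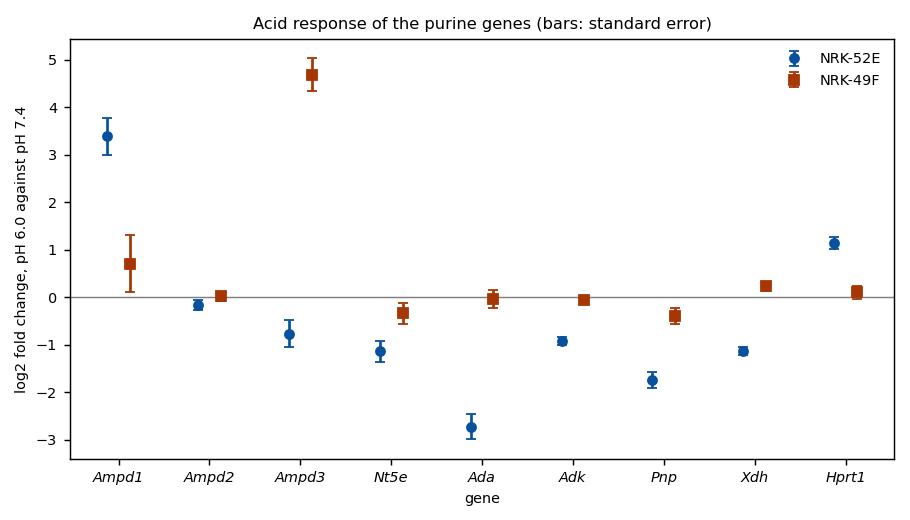
Log2 fold change at pH 6.0 against pH 7.4 (y axis) of 9 genes (x axis) in NRK-52E (circles) and NRK-49F (squares) with its standard error; Gda is left out because its acid NRK-52E samples were at 0. In NRK-49F all genes but Ampd3 (4.68) lay between -0.40 and 0.71, while in NRK-52E they ranged from -2.73 (Ada) to 3.38 (Ampd1).

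Some of these genes also differed between the lines before acidification, at about the share found over all genes. Gda and Ampd1 passed the filter on low counts only through the line in which they were high, so their differences are given as a description. Of the 7 others, 5 passed between the lines at pH 7.4, against 68.8% of all genes, with 2 higher (33.9%) and 3 lower (35%) in NRK-49F. At pH 6.0, 6 passed, against 75.5%, with 4 higher (38.9%) and 2 lower (36.6%). Ada is counted among the 4 higher, although its NRK-52E samples at pH 6.0 held only 5 to 12 counts each. Ada was higher in NRK-49F than in NRK-52E by 3.55 on the log2 scale at pH 7.4 (SE 0.20, adjusted p = 1.20e-13). Its difference of 6.23 at pH 6.0 is given as a description because of these few counts. Adk was higher by 0.63 at pH 7.4 (SE 0.080, adjusted p = 1.78e-07) and by 1.48 at pH 6.0 (SE 0.084, adjusted p = 7.77e-14). The mean of Gda in NRK-49F at pH 6.0 was at least 405-fold higher than the mean level of 3 counts per sample in NRK-52E. Pnp and Nt5e did not pass between the lines at pH 7.4 (0.30, adjusted p = 0.111, and 0.28, adjusted p = 0.242), and at pH 6.0 both were higher in NRK-49F (1.64, adjusted p = 6.70e-09, and 1.07, adjusted p = 0.000218).

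Of the genes lower in NRK-49F, Xdh went from a log2 difference of -1.60 at pH 7.4 (SE 0.085, adjusted p = 3.37e-14) to -0.23 at pH 6.0 (SE 0.088, adjusted p = 0.0206), where the samples of the 2 lines overlapped. The latter call was lost without A024 (adjusted p = 0.0569), A025 (0.0549), A055 (0.0518) or A056 (0.0556). Hprt1 was lower in NRK-49F as well, with a log2 difference of -0.82 at pH 7.4 (SE 0.13, adjusted p = 8.25e-06) and of -1.86 at pH 6.0 (SE 0.15, adjusted p = 3.39e-11). Ampd2 was lower at pH 7.4 (-0.40, SE 0.10, adjusted p = 0.000957) and did not pass at pH 6.0 (-0.22, SE 0.10, adjusted p = 0.0608), though 6 of 31 alternatives called it. For Ampd1 the log2 differences were -1.94 and -4.62. Ampd3 changed its order, with all NRK-49F samples below all NRK-52E samples at pH 7.4 and above them at pH 6.0, where the means differed 6.71-fold. Of all genes, 25.5% had all NRK-49F samples higher and 25.2% all lower at pH 7.4, and 30.3% and 27% at pH 6.0.

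Around these genes, 78 further genes of purine metabolism were listed in 10 groups, of which 74 were in the table and 59 were tested. The counts below are over the 53 that passed the filter on low counts within NRK-52E and the 50 that did so within NRK-49F. In NRK-52E 15 were higher and 15 lower at pH 6.0 (28.3% each, against 26.2% and 36.4% of all genes that passed there). In NRK-49F 14 were higher and 4 lower (28% and 8%, against 15.5% and 14.7%). The median log2 fold changes were -0.02 and 0.22, against -0.09 and 0.01. Each group holds few genes, and its counts are a description beside these shares. In the step from IMP to AMP and GMP, which takes up the product of the AMP deaminases, 3 of 4 tested genes were higher in each line and 0 were lower. The 75% higher stood against 26.2% of all genes in NRK-52E and 15.5% in NRK-49F. Adssl1, an adenylosuccinate synthase that turns IMP towards AMP, went from 0.938 ± 0.302 to 5.96 ± 3.54 FPM in NRK-52E (SD, n = 6 each, log2 fold change 2.67, SE 0.33, adjusted p = 1.92e-07). In NRK-49F it went from 0.785 ± 0.247 (n = 6) to 4.53 ± 0.557 FPM (n = 5, log2 fold change 2.55, SE 0.34, adjusted p = 3.93e-06).

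Of 6 intracellular 5'-nucleotidases, 4 were lower and 0 higher in NRK-52E (66.7% lower, against 36.4%), while of 5 in NRK-49F 1 was higher and 1 lower (20% each, against 15.5% and 14.7%). The 4 were Nt5c, Nt5c3a, Nt5c1b and Nt5m. Of these, Nt5c1b was at only 0.985 and 0.186 FPM at pH 7.4 and 6.0. The call of Nt5m in NRK-52E (-0.39, adjusted p = 0.0180) was lost with the line alone (0.0625) and in sample groups 1 (0.112) and 3 (0.209) alone. Nt5c, which dephosphorylates nucleoside monophosphates in the cytosol, fell from 6.52 ± 1.28 to 2.02 ± 1.10 FPM in NRK-52E (log2 fold change -1.65, SE 0.27, adjusted p = 9.56e-06). In NRK-49F cells Nt5m, the mitochondrial form, was higher (0.56, SE 0.14, adjusted p = 0.00500) and Nt5c2 lower (-0.37, SE 0.087, adjusted p = 0.00228). Both calls were lost in sample groups 4 and 6 fitted alone, with fewer samples (adjusted p of 0.0583 to 0.310). The Entpd and Enpp genes and Alpl encode nucleotidases and phosphatases of the cell surface and of intracellular membranes. Of these, 3 of 6 were higher in NRK-52E (50%, against 26.2%; Entpd4, Entpd5 and Enpp1) and 3 of 4 in NRK-49F (75%, against 15.5%; Entpd4, Entpd5 and Enpp3), and 0 were lower. Entpd4 and Entpd5 are known as enzymes inside the cell, Enpp1 and Enpp3 as enzymes of its surface. The call of Enpp1 in NRK-52E was near the threshold (0.76, SE 0.33, adjusted p = 0.0475), at 23.51 ± 10.65 and 39.85 ± 24.85 FPM at pH 7.4 and 6.0. The largest rise in both lines was that of Entpd5, a nucleoside diphosphatase of the endoplasmic reticulum, from 8.14 ± 1.80 to 64.3 ± 11.8 FPM in NRK-52E (2.97, SE 0.18, adjusted p = 2.11e-12) and from 12.2 ± 2.80 to 76.2 ± 16.4 FPM in NRK-49F (2.64, SE 0.18, adjusted p = 1.23e-10).

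Of the nucleoside transporter genes, Slc29a1, which encodes the equilibrative transporter ENT1, responded differently in the 2 lines. It rose in NRK-49F from 111 ± 9.57 to 303 ± 21.3 FPM (1.44, SE 0.15, adjusted p = 8.99e-08), and was at 16.5 ± 3.60 and 16.1 ± 4.30 FPM in NRK-52E (-0.04, SE 0.15, adjusted p = 0.817). The NRK-52E value averages sample groups of opposite sign, with -0.60 in sample group 1 (adjusted p = 0.000353) and 0.66 in sample group 3 (adjusted p = 0.00210). The difference of the responses was 1.49 (SE 0.21, adjusted p = 4.56e-06). In NRK-52E the relative Slc29a2 rose (0.79, SE 0.14, adjusted p = 4.18e-05). Of 4 nucleoside transporters there, 1 was higher and 1 lower (25% each, against 26.2% and 36.4%), and of 5 in NRK-49F 1 was higher and 1 lower (20% each, against 15.5% and 14.7%). The concentrative transporter Slc28a1 did not pass the filter within NRK-52E, where its means were 0.296 and 0.0810 FPM. The lysosomal transporter Slc29a3 fell in NRK-49F (-0.50, SE 0.11, adjusted p = 0.00184), a call lost in sample group 4 alone (-0.35, adjusted p = 0.206). Of the adenosine receptors, none passed the filter within NRK-52E, where Adora2b was at 0.422 ± 0.255 and 0.208 ± 0.145 FPM. Adora2b was at 5.40 and 6.11 FPM in NRK-49F and did not pass there (0.18, adjusted p = 0.647).

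Among 9 tested salvage and other breakdown enzymes, 3 were higher and 3 lower in NRK-52E (33.3% each, against 26.2% and 36.4%), and 3 were higher and 0 lower in NRK-49F (33.3% higher, against 15.5%). Deoxycytidine kinase (Dck) rose most in both lines, by 1.68 in NRK-52E (SE 0.17, adjusted p = 1.22e-08) and 1.10 in NRK-49F (SE 0.17, adjusted p = 2.50e-05). GMP reductase (Gmpr), which returns GMP to IMP, fell in NRK-52E from 7.13 ± 1.95 to 1.47 ± 0.908 FPM (-2.24, SE 0.30, adjusted p = 8.85e-07). De novo purine synthesis showed 1 gene higher and 1 lower of 9 in each line (11.1% each, below the shares over all genes), with Ppat, its first committed enzyme, higher (0.38, SE 0.093, adjusted p = 0.00125) and Paics lower (-0.39, SE 0.067, adjusted p = 2.46e-05, lost in sample group 3 alone at 0.0594) in NRK-52E. In NRK-49F these were Prps2, which makes the ribose precursor (0.31, SE 0.092, adjusted p = 0.0129), and Gart (-0.59, SE 0.089, adjusted p = 1.80e-05). The call of Prps2 was lost in each sample group alone (adjusted p of 0.142 and 0.261).

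Of 7 adenylate and guanylate kinases, 3 were higher and 2 lower in NRK-52E (42.9% and 28.6%, against 26.2% and 36.4%), with guanylate kinase Guk1 higher (0.77, SE 0.17, adjusted p = 0.000339) and Ak4 lower (-0.43, SE 0.16, adjusted p = 0.0205). In NRK-49F 0 of 6 passed, against 15.5% higher and 14.7% lower over all genes. The call of Ak4 was lost with the line alone (-0.34, adjusted p = 0.121), in sample group 3 alone (-0.06, adjusted p = 0.842) and without A025 (0.0516), A026 (0.0616) or A034 (0.0607). Of 6 subunits of the AMP-activated kinase, 3 were lower in NRK-52E (50%, against 36.4%), and of 5 in NRK-49F 1 was lower (20%, against 14.7%). Prkag2, a subunit that binds AMP, fell in NRK-52E from 18.4 ± 0.987 to 6.18 ± 1.32 FPM (-1.57, SE 0.13, adjusted p = 2.90e-10), and Prkab1 was lower in NRK-49F (-0.29, SE 0.070, adjusted p = 0.00272), a call lost in each sample group alone (adjusted p of 0.0974 and 0.140). Urate transporters gave 1 higher and 1 lower of 2 in NRK-52E (50% each, against 26.2% and 36.4%). In NRK-49F 2 of 2 were higher (100%, against 15.5%), but this share rests in part on few counts of Slc22a12 (URAT1). It was at 0.236 ± 0.292 FPM at pH 7.4, near the mean level of 3 counts there (0.136 FPM), and at 0.735 ± 0.306 FPM at pH 6.0. Its rise, the largest there by the rule (1.52, SE 0.46), is thus given as a description. Its call in the fit of both lines was lost with NRK-49F fitted alone (adjusted p = 0.0775) and in sample group 6 alone (0.56, adjusted p = 0.729). In NRK-52E it rose from 4.18 ± 0.565 to 8.57 ± 1.03 FPM (1.03, SE 0.29, adjusted p = 0.00393).

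**Figure D4:**
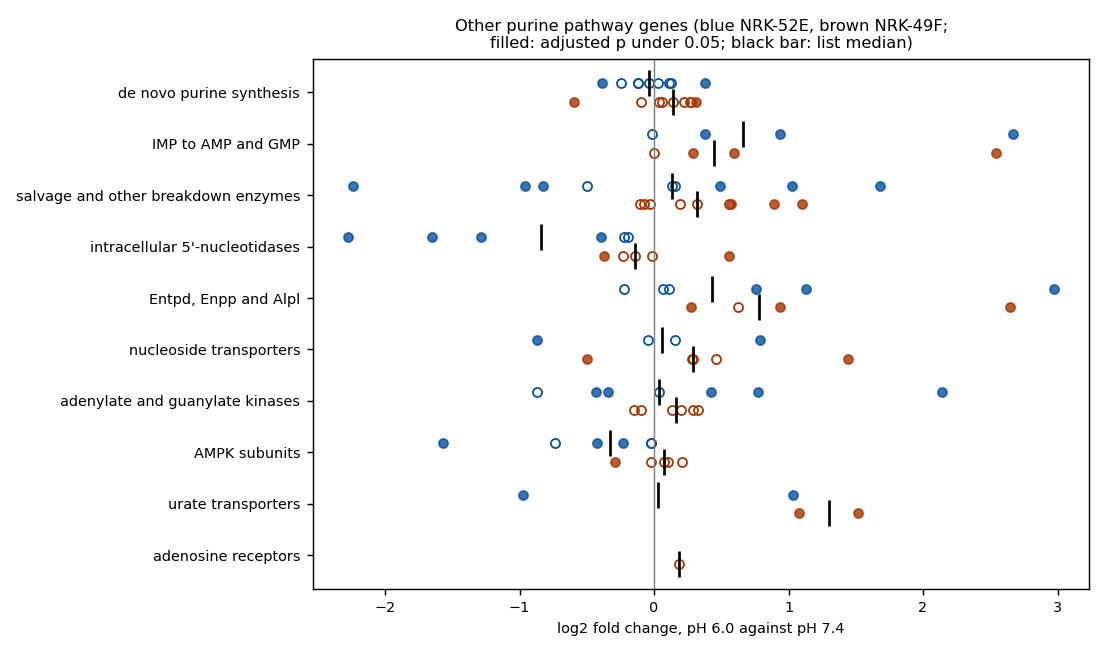
Log2 fold change at pH 6.0 against pH 7.4 (x axis) of the genes of each purine group (y axis), blue for NRK-52E and brown for NRK-49F, filled where the adjusted p was under 0.05, with black bars at the group medians; genes that did not pass the filter on low counts within a line are left out for it. Entpd5 and Adssl1 lay above 2.5 in both lines, and the 5'-nucleotidases of NRK-52E lay below 0.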

How the data were processed

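Poly(A) RNA of NRK-52E and NRK-49F cells was sequenced in read pairs. Per the labels and the study's methods, the authors mapped the reads with HISAT2 2.1.0 and counted them on Ensembl gene exons with featureCounts, multi-mapping reads included, so that reads shared with gene copies counted for each, and deposited raw counts without normalization. The labels name the genome rn6 and the study's methods rn7, and the strand setting is not given in the sources used here. Of 36 per-sample columns 23 matched a label and the other 13 were not used.

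Counts were filtered with filterByExpr, scaled by TMM and fitted in edgeR 4.0.16 (R 4.3.3) with all 4 conditions in one model, tested by the quasi-likelihood test with Benjamini-Hochberg adjustment over all 14777 genes, and called at an adjusted p under 0.05. In simulated data with log2 changes of 2, it recovered 143 of 150 changed genes in NRK-52E and 92 of 100 in NRK-49F. Unchanged genes called there numbered 16 and 5. For the difference of the responses, 140 of 150 were recovered and 4 others called. DESeq2 1.42.0, other scalings, filters and thresholds, sample group as a block, single lines or sample groups and each sample left out were the alternatives. Calls of gene groups were counted over genes that also passed the filter within the line, an alternative chosen after seeing the data. A fold against samples at 0 used 3 counts per sample, which covers counting error only. Levels are compared between samples and not between genes, since gene length was not used. The members, gene groups and tests were chosen with earlier results of these data known. Named were the members, the largest called rise and fall per group and line at a mean of at least 1 FPM, 5 RefSeq neighbours on each side of Ampd3 and the genes most correlated with each member. Figures were drawn with matplotlib 3.10.9.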

Additional observations from a re-analysis of the deposited data

Results flagged for a closer look

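In groups of 5 or 6 samples, 1 sample lay far from the rest in 5 of 39 groups examined, and chance alone gives about 1 in 20. These were Ampd1 in A038 of NRK-52E at pH 6.0 (5.13 FPM, nearest sample 8.69), Ampd3 in A035 of NRK-52E at pH 7.4 (8.09 FPM, nearest 11.7), Ampd3 in A040 of NRK-49F at pH 7.4 (3.69 FPM, nearest 1.53), Xdh in A052 of NRK-49F at pH 7.4 (158 FPM, nearest 181) and Gda in A021 of NRK-52E at pH 7.4 (0.728 FPM, nearest 0.182).

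The acid response differed between the lines in the edgeR quasi-likelihood test for Adk, Nt5e, Pnp, Xdh and Hprt1. As the response of NRK-49F minus that of NRK-52E on the log2 scale, the differences were 0.85 for Adk, 0.79 for Nt5e, 1.34 for Pnp, 1.36 for Xdh and -1.04 for Hprt1. The 2.68 of Ada is a description, since its acid NRK-52E samples held few counts. The -2.68 of Ampd1 is a description as well, since Ampd1 passed the filter on low counts only through NRK-52E. Within NRK-52E the response differed between sample groups 3 and 1 by -1.30 for Ampd3 and -0.95 for Pnp.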

How the results depend on the processing

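Of 4267 values of 167 results under alternative settings, 4127 kept the side of the threshold. For gene counts, levels and Ampd3 in NRK-49F this meant staying close to the main value. A further 81 were weaker and 54 stronger, as a call lost or gained or a smaller or larger count, 4 moved and 1 reversed. A change of sign counted as reversed only where a call was involved. Uncalled values could thus change sign and count as kept, as Slc29a1 did in NRK-52E (-0.04, and 0.05 with the line alone). The number of the 9 genes called in NRK-52E, 8 with Gda counted, was 5 when at least 10 counts were required in every sample, where only 6 could be tested; the same filter gave 4 between the lines at pH 7.4 and 5 at pH 6.0. In NRK-49F it was 2 with the line alone, 2 with sample group as a block and 0 to 1 with single samples left out. Between sample groups 1 and 3 DESeq2 called 2. Sample group 4 alone gave 9 pathway genes in NRK-49F, in place of 18. The change of Ampd3 in NRK-52E (-0.77) did not pass at an adjusted p under 0.01, with the line alone (-0.69) or in sample group 1 alone (-0.23), and ranged from -0.96 to -0.62 with single samples left out; in NRK-49F it ranged from 4.52 to 5.05. Slc29a1 in NRK-52E reversed to 0.66 in sample group 3 alone, against -0.60 in sample group 1. Counting only genes that passed the low-count filter within the line, chosen after seeing the data, left 7 of 8 genes called in NRK-52E and 0 of 8 in NRK-49F, and 30 and 18 pathway genes. Gda in NRK-52E and Ampd1 in NRK-49F rested on few counts, at the limit of the depth. No paired analysis was possible because the labels give no replicate numbers shared between the pH values.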

Other observations

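In RefSeq gene order, the measured neighbours of Ampd3 within 5 genes on each side were Adm, rnf141, Lyve1, Irag1, Ctr9 and Eif4g2. Adm, which encodes adrenomedullin, was at 59.7 and 151 FPM in NRK-49F at pH 7.4 and 6.0 (log2 fold change 1.33, edgeR adjusted p = 2.50e-05) and at 0.256 and 0.00910 FPM in NRK-52E. Irag1 rose in NRK-49F (1.44, adjusted p = 0.00105) and fell in NRK-52E (-2.09, adjusted p = 9.38e-05), calls lost in sample groups 4 (0.116) and 1 (0.0595) alone. Its means in NRK-52E were only 1.495 and 0.314 FPM at pH 7.4 and 6.0, so this fall rests on few counts. Ctr9, a subunit of the PAF1 complex, rose in NRK-49F (0.88, adjusted p = 6.42e-09) and did not pass in NRK-52E (0.09, adjusted p = 0.283), where it passed with the line alone (0.18, adjusted p = 0.0442). The ubiquitin ligase gene rnf141 was higher in both lines (0.36 and 0.27), Eif4g2 did not pass in either (-0.15 in each; called in NRK-52E in 6 alternatives), and Lyve1 was too low to be tested.

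Over the 23 samples and 11872 candidate genes, the levels most correlated with Ampd3 were those of Lpin3 (Pearson r = 0.891), Ermp1 (0.888), Gstm1 (0.875), Nudt4 (0.871) and Pank4 (0.852), on the log2(FPM + 0.5) scale. Mean Lpin3 was 21.97 and 44.6 FPM in NRK-49F at pH 7.4 and 6.0 and 37.1 and 23.6 FPM in NRK-52E. For the other genes the closest were Chrna4 for Ampd1 (0.972), Pxk for Ampd2 (0.931), Csrp2 for Ada (0.995), Mgst3 for Adk (0.989), Zfp184 for Nt5e (0.901), Ywhab for Pnp (0.989), Pdlim3 for Xdh (0.979), Cped1 for Gda (0.998) and Psmd8 for Hprt1 (0.992). The second closest to Adk was the 5'-nucleotidase Nt5c3a (0.989), at 14.6 and 5.95 FPM in NRK-52E and 28.3 and 25.5 FPM in NRK-49F. These correlations describe 4 conditions that the samples share, and replicates within a condition are not independent points of such a pattern.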
